A study of Mus musculus with 4 samples.

Results

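The 10 genes described here encode the mTOR kinase and its partners in mouse T-helper 17 (Th17) cells: Mtor, Rptor, Rictor and Mlst8 for the 2 mTOR complexes, Tsc1, Tsc2 and Rheb for the switch upstream, and the kinases Akt1, Akt2 and Sgk1. The rule that chose them lists names and uses no measured value. They make up 10 of the 50600 genes in the files. Each gene name matched 1 gene identifier. RNA sequencing was done on 4 libraries of 1 group, primary Th17 cells of strain C57BL/6NJ, whose age and sex were not recorded. The library names carry the marks 72 hr and sorted, and no treatment, genotype or second cell type is given, so the comparisons are between genes within a library and between the 4 libraries. The labels number the libraries as biological replicates and give all of them 1 donor label. They do not say whether separate cultures or animals were used. All p-values therefore refer to these libraries only. Those of the gene pairs test a difference between 2 genes within the libraries, and the others test the spread among the libraries. How much of that spread is technical was not tested, and Xist, given below, differed between the libraries.

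mTOR is a protein kinase that couples nutrients and growth signals to protein synthesis and metabolism. It works in 2 complexes that share the subunit mLST8: complex 1 (mTORC1) is built on raptor, the product of Rptor, and complex 2 (mTORC2) on rictor, the product of Rictor. The TSC1 and TSC2 proteins together switch off the small GTPase Rheb, the direct activator of mTORC1, and AKT relieves that brake by phosphorylating TSC2. AKT kinases and SGK1 are themselves substrates of mTORC2. In T-helper cells, mTORC1 is known for its part in Th17 differentiation, and SGK1, a kinase induced by salt and hormones, for promoting the Th17 state through the interleukin 23 receptor.

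The totals ran from 9382661 counts of read pairs in replicate 3 to 34542693 in replicate 1, and the 10 genes together held 86520 counts over the 4 libraries. The label was checked against its markers. All 5 Th17 markers (Il17a, Il17f, Ccr6, Il23r and Rora) had at least 1 TPM (a level scaled for gene length and library total) in every library, as did all 4 T-cell markers. Among markers of 8 other cell classes, only Cd8b1 and Klrd1 had at least 1 TPM in every library. Cd14, a macrophage and monocyte marker, had 1.76, 2.55, 0.670 and 1.96 TPM in replicates 1 to 4. The erythroid marker Hba-a1 had 1.02 TPM in replicate 2. Ms4a1, Ncr1, Klrb1c, S100a8, S100a9 and Hbb-bs were at 0 counts. Xist, the RNA that coats the inactive X chromosome, stood at 177 TPM (replicate 1), 193 TPM (replicate 2), 2.15 TPM (replicate 3) and 0.598 TPM (replicate 4), a gap between libraries that share 1 donor label. In bulk RNA, fewer cells of a type and less RNA per cell cannot be told apart.

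The promoters of the highest and the lowest of the 10 genes are printed here because these genes stand at both ends of the range of levels. Each line gives the 250 bases before the RefSeq transcription start closest to the start of the principal GENCODE transcript, 5′ to 3′ along the gene's strand (build GRCm38.p6). Akt1 lies on the minus strand (chr12:112674277-112674526) and Sgk1 on the plus strand (chr10:21994416-21994665). Capitals mark GGGCGG (the GC box bound by SP factors) and TATAAA (the TATA box), searched on both strands.
Akt1: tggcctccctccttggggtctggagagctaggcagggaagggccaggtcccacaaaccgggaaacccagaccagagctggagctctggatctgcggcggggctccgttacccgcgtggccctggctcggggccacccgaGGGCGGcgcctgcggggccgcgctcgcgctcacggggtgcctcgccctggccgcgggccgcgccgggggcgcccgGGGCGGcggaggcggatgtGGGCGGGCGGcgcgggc
Sgk1: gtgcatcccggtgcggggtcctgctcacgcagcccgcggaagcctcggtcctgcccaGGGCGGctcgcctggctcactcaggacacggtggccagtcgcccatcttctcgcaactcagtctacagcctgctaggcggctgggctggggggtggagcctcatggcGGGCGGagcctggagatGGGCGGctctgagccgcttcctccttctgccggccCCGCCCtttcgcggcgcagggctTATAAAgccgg
Both windows hold 4 GC boxes, of which the last 2 in Akt1 overlap. Sgk1 was the only one of the 10 genes with TATAAA, whose first base lies 11 bases before the start, and 12.4% of the 32851 promoter windows of this length hold that motif. GGGCGG was found in 6 of the 10 genes and in 32.7% of all windows, and CCAAT in Mtor and Rictor against 33.9% (in Rictor it overlaps a GC box). The MYC-type E-box CACGTG was found in Rheb alone, against 6.02%. The start used lies 263 bases from the principal GENCODE start in Rheb and 244 bases in Rptor. In the other genes it lies at most 29 bases away. No window of the 10 held the forkhead core GTAAACA, the cAMP response element TGACGTCA or the YY1 core GCCATNTTG. All 10 windows had more CpG dinucleotides (9 to 40) than the median window, which has 6. Sgk1 has 6 RefSeq starts, Akt2 has 4 and Akt1 has 2, and counts per gene do not tell which start was used. A match describes letters and does not show binding.

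All 10 genes had at least 1 TPM in every library, beside 47.6% of the 21764 protein-coding genes. Their mean levels spanned 61.1-fold, from Akt1 at 269 ± 6.04 TPM to Sgk1 at 4.41 ± 1.14 TPM (SD, n = 4). The 8 genes between them lay between 13.6 and 50.4 TPM. The median level of the 10 genes, 28.4 TPM, compares with 0.818 TPM for all protein-coding genes, of which 11068 had a mean below 1 TPM. Among the 10696 protein-coding genes whose mean reached 1 TPM, Mtor and Rheb, in the middle of the 10, ranked 5176th and 5948th. The set was thus near the middle of the expressed genes. These levels use the exonic length in the files, the union of every annotated exon of the gene, and the order of several genes depends on that choice, as given below.

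**Figure D1:**
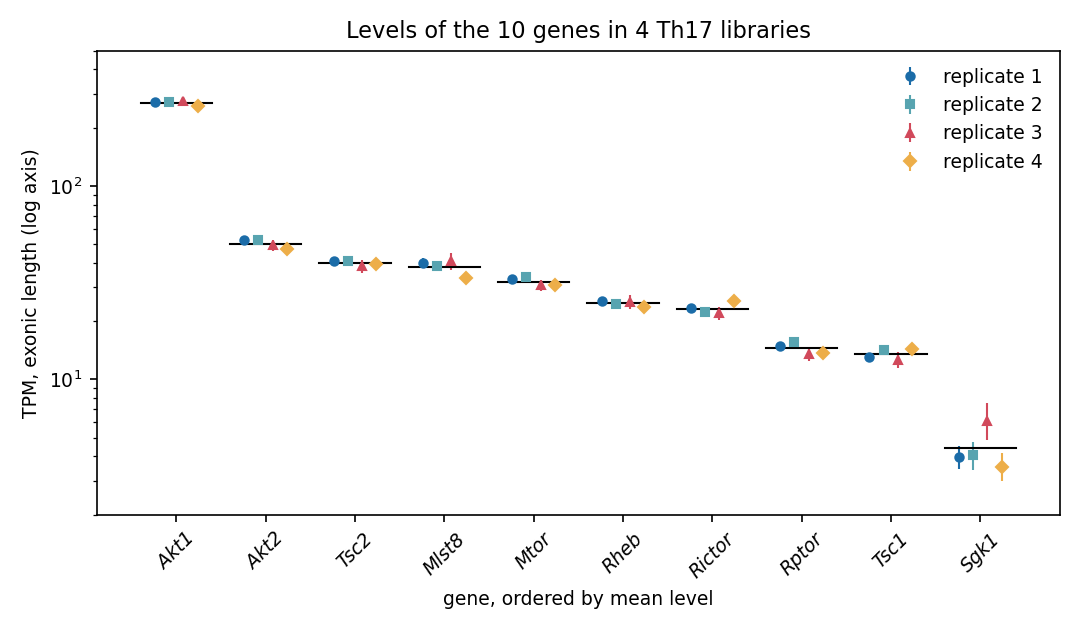
TPM of the 10 genes (x axis, ordered by mean) in each of the 4 Th17 libraries on a log axis, with 95% exact Poisson intervals for counting error as vertical bars and the mean as a horizontal line. Akt1 stands alone at 269 TPM and Sgk1 alone at 4.41 TPM, and replicate 3 is the high point for Sgk1.

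Among the upstream kinases, Akt1, which encodes the main AKT isoform of many tissues, was the most abundant (ENSMUSG00000001729.14, chromosome 12, 112653821 to 112674884, minus strand, mm10). It had 271, 272, 274 and 261 TPM in replicates 1 to 4. The 4 values were nearly level, with replicate 4 lowest, and Akt1 ranked 616th among 10696 protein-coding genes whose mean reached 1 TPM. Akt2, the isoform known for insulin signalling (ENSMUSG00000004056.15, chromosome 7, 27591552 to 27640826), had 52.6, 52.4, 49.2 and 47.2 TPM. Every library had more Akt1 than Akt2, by 2.40 ± 0.0565 log2 units on the log2(TPM + 1) scale (SD, n = 4). The ratio of their mean TPM was 5.35-fold. The exact sign-flip permutation test (two-sided) gave p = 0.13, the smallest that 4 libraries allow, and 0.14 after Benjamini-Hochberg adjustment over the 12 gene pairs compared. This holds for 10 other pairs too, so none could pass 0.05, and pairs are described by size and by the libraries that share the sign. The Akt2 level is uncertain: 31.8% of its principal transcript has a copy of at least 98% identity in the processed pseudogene Akt2-ps on chromosome 11 (16514533 to 16515981), and the counting options in the headers leave out reads with several places. By how much this lowers Akt2 was not tested. Akt2-ps itself had 2.04 ± 0.263 TPM. None of the other 9 genes had such a copy of 100 bases or more elsewhere among GENCODE transcripts.

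Sgk1, the serum- and glucocorticoid-regulated kinase (ENSMUSG00000019970.15, chromosome 10, 21882184 to 21999903), had 204, 144, 85 and 152 counts, or 3.97, 4.05, 6.08 and 3.54 TPM in replicates 1 to 4. Replicate 3 was the high one, at 1.60 times the mean of the other 3 libraries in TMM-normalised CPM (counts scaled to the effective library total). Its 95% Poisson interval, 4.86 to 7.52 TPM, lay above those of replicates 1 (3.44 to 4.55 TPM), 2 (3.42 to 4.77 TPM) and 4 (3.00 to 4.15 TPM). These intervals cover counting error only. Sgk1 was below Akt1 by -5.66 ± 0.260 log2 units on the log2(TPM + 1) scale in 4 of 4 libraries. With a pseudocount of 0.1 the difference was -5.93 ± 0.313 log2 units. The ratio of their mean TPM was 61.1-fold. Sgk1 ranked 9348th of the same 10696 genes.

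Of the other SGK genes, Sgk2 had 0 counts in all 4 libraries, which allows up to 3 counts, or 0.0838 TPM in replicate 1 and 0.308 TPM in replicate 3. Sgk3, a paralogue that binds endosomal lipids, had 2.22, 2.17, 3.04 and 1.71 TPM and shared with Sgk1 its highest library, replicate 3, and its lowest, replicate 4. In TMM-normalised CPM, Akt1, Mlst8 and Rheb had the same extremes. So did 11.0% of the 2259 tested genes with at least 1.5-fold between their extreme libraries. Sgk1 exceeded Sgk3 by 0.71 ± 0.0820 log2 units in 4 of 4 libraries. That order turned with the length used: with the longest coding transcript, Sgk3 had 6.29 ± 1.53 and Sgk1 5.08 ± 1.31 TPM, a difference of -0.26 ± 0.0824 log2 units. The annotated exons of Sgk3 add up to 14311 bp and that transcript to 3779 bp, and reads outside it were still counted.

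Of the shared core of both mTOR complexes, Mtor (ENSMUSG00000028991.15, chromosome 4, 148448611 to 148557683) had 32.9, 33.9, 30.6 and 30.9 TPM. Replicates 1 and 2 were slightly above 3 and 4. Mlst8, the beta-propeller subunit that stabilises the kinase (ENSMUSG00000024142.14, chromosome 17, 24473550 to 24479078, minus strand), had 40.2, 38.6, 40.9 and 33.6 TPM, with replicate 4 apart from the rest. Mtor was below Mlst8 by -0.25 ± 0.13 log2 units in 4 of 4 libraries, although the ranges of both genes overlap. With the longest coding transcript as length, Mtor was above Mlst8 by 0.17 ± 0.124. For Mlst8 that transcript (3855 bp) is longer than the exons that were counted (3366 bp), so it includes bases that could hold no counts. Whether the order turns with a shorter transcript of Mlst8 was not tested.

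For the scaffolds that tell the complexes apart, the order of levels depended on the length used. Rptor, for mTORC1 (ENSMUSG00000025583.15, chromosome 11, 119602905 to 119899576), had 14.9, 15.6, 13.6 and 13.8 TPM. Rictor, for mTORC2 (ENSMUSG00000050310.8, chromosome 15, 6708381 to 6800398), had 23.3, 22.3, 21.9 and 25.5 TPM. With exonic lengths Rptor was the lower of the pair by -0.65 ± 0.148 log2 units, and the 2 ranges did not overlap. With the longest coding transcript it was the higher, by 0.33 ± 0.149 log2 units, again in 4 of 4 libraries (21.5 ± 1.42 against 16.9 ± 1.17 TPM). Which scaffold transcript is more abundant was therefore not determined by these counts. Mtor exceeded both under either length, Rptor by 1.10 ± 0.0205 and Rictor by 0.45 ± 0.133 log2 units with exonic lengths, and by 0.34 ± 0.0228 and 0.67 ± 0.131 with transcript lengths.

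In the TSC and Rheb switch, Tsc2, the GTPase-activating subunit (ENSMUSG00000002496.9, chromosome 17, 24595937 to 24632629, minus strand), had 41.1, 41.0, 38.4 and 39.5 TPM. Tsc1, its stabilising partner (ENSMUSG00000026812.16, chromosome 2, 28641228 to 28691167), had 13.1, 14.2, 12.6 and 14.4 TPM. The groups of values are far apart: Tsc2 exceeded Tsc1 by 1.49 ± 0.0809 log2 units in 4 of 4 libraries. The ratio of their mean TPM was 2.95-fold, and 1.84-fold with transcript lengths. Tbc1d7, the third subunit of that complex, had 45.4, 41.6, 37.6 and 43.7 TPM. With exonic lengths it was not distinguished from Tsc2, with a difference of -0.07 ± 0.0857 log2 units that was positive in 1 of 4 libraries (exact sign-flip permutation p = 0.375, the same after adjustment over 12 pairs). With transcript lengths Tsc2 was lower in 4 of 4 libraries, by -0.14 ± 0.0850 log2 units, with the smallest p that 4 libraries allow (exact sign-flip permutation p = 0.13). The longest coding transcript of Tsc2 (6266 bp) is longer than its counted exons (6018 bp), so it includes bases that could hold no counts. Whether all 4 libraries keep this sign with a shorter transcript of Tsc2 was not tested.

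Rheb (ENSMUSG00000028945.9, chromosome 5, 24802823 to 24842624, minus strand) had 25.4, 24.7, 25.2 and 23.8 TPM, among the most even of the 10 genes. Its paralogue Rhebl1, which can also act on mTORC1, had 22.4, 20.6, 24.4 and 20.2 TPM. Rheb was above Rhebl1 by 0.17 ± 0.0935 log2 units in 4 of 4 libraries, and above it by 1.63 ± 0.0934 with transcript lengths. Mtor exceeded Rheb by 0.36 ± 0.0701 log2 units with exonic lengths, whereas with transcript lengths Rheb exceeded Mtor (-1.47 ± 0.0701 for Mtor minus Rheb).

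Rheb was the gene most affected by the choice of length. Its annotated exons add up to 7721 bp and its longest coding transcript to 1784 bp, a ratio of 4.33, and the ratio was 2.04 for Rptor and between 0.873 and 1.58 for the other 8 genes. With the longest coding transcript Rheb had 78.0 ± 2.26 TPM and moved from the sixth to the second place, above Akt2 at 57.5 ± 2.94 TPM. Reads in exons outside that transcript were still counted, so this level of Rheb can be too high. By how much was not tested. Akt1 (298 ± 6.61 TPM) stayed first, and Tsc1 (15.2 ± 0.982 TPM) and Sgk1 stayed the last 2. In the order by exonic length, Tsc2 and Mlst8, Rheb and Rictor, and Rptor and Tsc1 were neighbours whose difference had the same sign in only 3 of 4 libraries, so their places are not resolved. Exons on the same strand were shared with no other gene for any of the 10, so ambiguous overlaps removed no reads there.

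**Figure D2:**
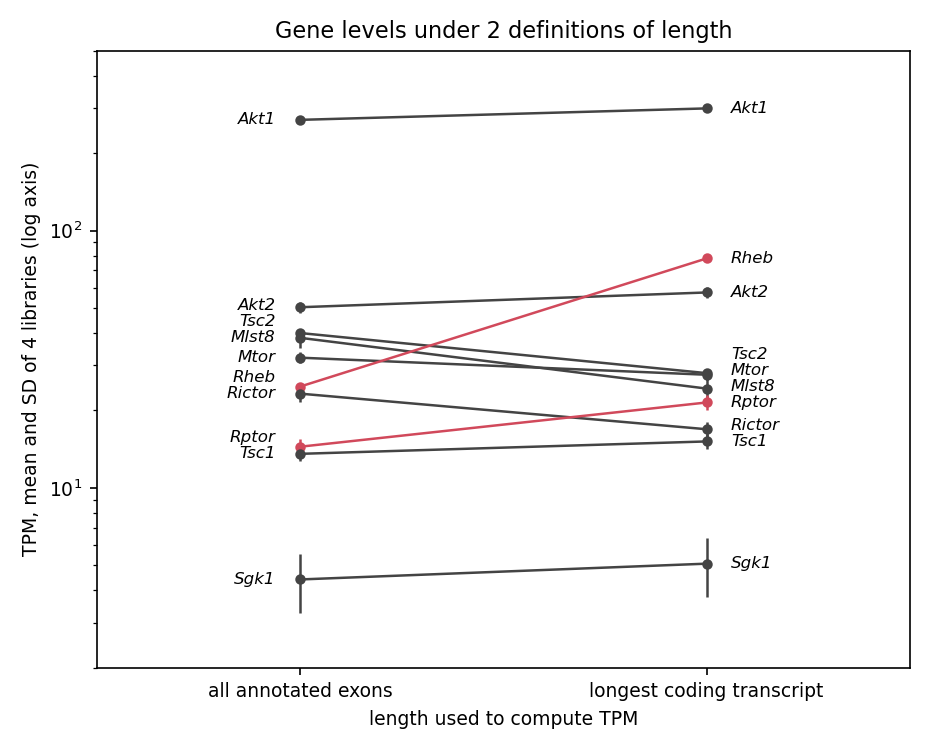
Mean TPM with SD over 4 libraries (log axis) of the 10 genes, computed with the length of all annotated exons (left) and of the longest coding transcript (right). Rheb and Rptor, drawn in red, move up past other genes, while Akt1 stays highest and Sgk1 lowest.

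The spread between the 4 libraries was tested for all genes at once, by asking whether a gene's quasi-dispersion exceeds that of genes at its abundance (edgeR, Benjamini-Hochberg adjustment). None of the 10 genes passed the threshold, beside 0.00823% of the 12156 genes tested, which is 1 gene, Xist. None had an unadjusted p under 0.05 either, beside 596 of all genes, and the adjusted p of the 10 ran from 0.991 to 0.994. DESeq2 marked none of the 10 as a dispersion outlier, beside 103 of 12156 genes. Leaving Sgk1 aside, the coefficient of variation of TMM-normalised CPM ran from 2.94% (Akt1) to 9.17% (Mlst8), beside a median of 7.91% over all genes tested. Among genes within 1.5-fold of each one's own level, the median ran from 5.13% to 6.37%. Rptor, Rictor, Akt2 and Mlst8 were above their medians, and Mlst8 was just above its upper quartile of 9.01%. The highest library exceeded the lowest by 1.06-fold (Tsc2) to 1.24-fold (Mlst8) in those 9 genes. Counting alone would give 1.25% for Akt1 and 3.65% for Mlst8. On the same CPM scale replicate 4 was the lowest library for 7 of the 10 genes and replicate 3 for the other 3, Tsc1, Tsc2 and Rictor.

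**Figure D3:**
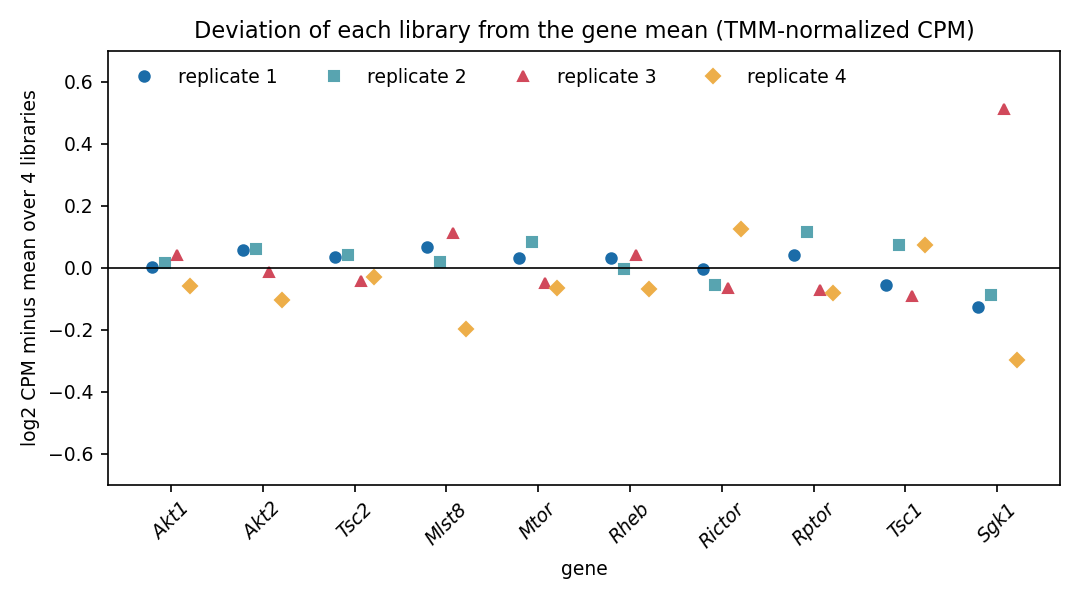
Log2 TMM-normalised CPM of each library minus the gene's mean over the 4 libraries (y axis) for the 10 genes (x axis). For 9 genes all points lie between -0.20 and 0.12, and for Sgk1 replicate 3 lies at 0.51 and replicate 4 at -0.30.

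Sgk1 was the exception in size, with a coefficient of variation of 26.7%, and counting alone would give 8.69%. It was 1.75-fold between replicates 3 and 4, the only one of the 10 with at least 1.5-fold between its extreme libraries, beside 18.6% of all genes tested. The 999 tested genes within 1.5-fold of its level had a median of 12.7%, with quartiles of 8.65% and 18.0%. Its test gave an unadjusted p of 0.138 and an adjusted p of 0.991 (edgeR). Without replicate 3 the coefficient of variation was 7.59%, so this spread rests on that library, which also has the fewest counts. Whether the depth of replicate 3 has a part in it was not tested.

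**Figure D4:**
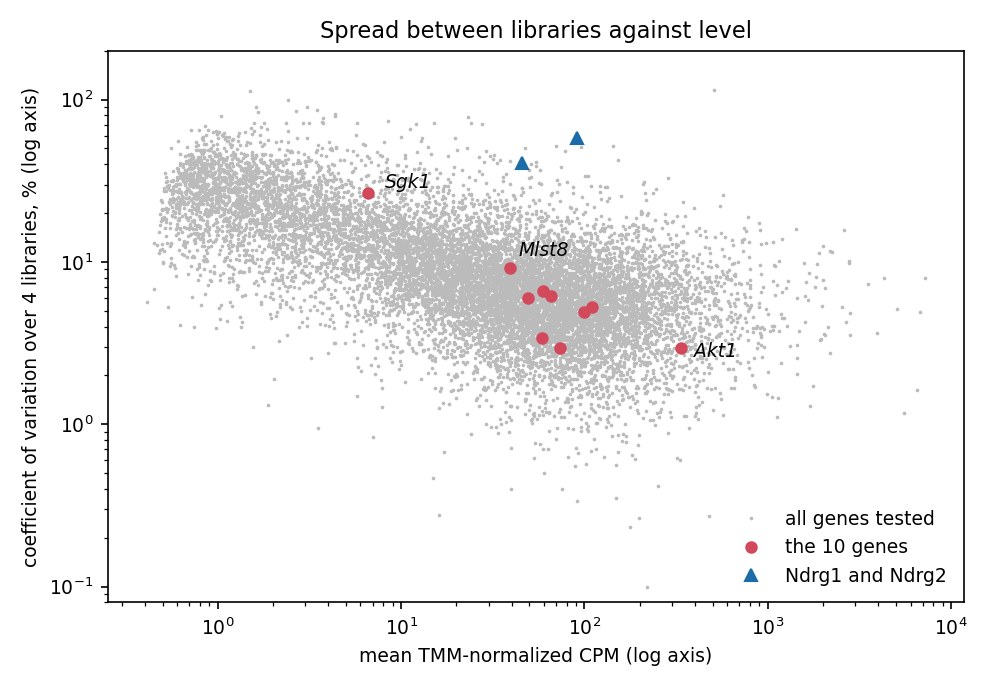
Coefficient of variation over the 4 libraries in percent against mean TMM-normalised CPM, both on log axes, for all 12156 genes tested (grey), the 10 genes (red) and Ndrg1 and Ndrg2 (blue triangles). Sgk1 at 26.7% lies above the other 9 genes, which lie between 2.94% and 9.17% inside the cloud.

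The genes whose profile over the 4 libraries came closest to that of Sgk1, by the root mean square difference of centred log2(TPM + 1) among 8158 protein-coding genes, were Ube2cbp (0.0246), Tmeff1 (0.0473), Pak1ip1 (0.0502), Rnf149 (0.0525) and Ndufaf4 (0.0547), where the median gene was at 0.251. Ube2cbp had 12.4, 12.1, 17.8 and 11.3 TPM, with replicate 3 high as in Sgk1. For Mtor they were Chmp7 (0.00481), Dcp1a (0.00594), Ap3d1 (0.00721), Snx11 (0.00835) and Ier2 (0.0105), where the median gene was at 0.0947. With 4 libraries many genes share a profile, and the lists describe these libraries only.

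The other genes of the pathway were taken as 9 lists by role, 102 genes in all. At least 1 TPM in every library was reached by 93 of them (91.2%). Among the remaining subunits, the mTORC1 inhibitor gene Akt1s1 had 31.4 ± 1.68 TPM, whereas Deptor, an inhibitor of both complexes, had 0.707 ± 0.060 TPM (SD, n = 4). For mTORC2, Mapkap1, which encodes the essential subunit SIN1, had 41.8 ± 2.25 TPM, and the accessory genes Prr5l and Prr5 had 6.24 ± 0.697 and 4.17 ± 1.06 TPM. Fkbp1a, the protein through which rapamycin acts on mTORC1, was the highest of this list at 448 ± 35.3 TPM, followed by the assembly factor gene Tti1 at 45.4 ± 2.50 TPM.

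Upstream, Pik3cd, the PI3K catalytic subunit typical of leukocytes, led its list at 134 ± 11.2 TPM, ahead of the lipid phosphatase gene Inpp5d (52.8 ± 1.59 TPM) and Pik3ca (49.7 ± 1.01 TPM). Pik3r3, a regulatory subunit, was the only one of these 14 genes below 1 TPM in the mean, at 0.827 ± 0.298 TPM. It shares 24.3% of its exonic length with Gm49337 on the same strand, where the options in the headers assign reads to neither gene, so its level is uncertain. All 13 Rag and Ragulator genes, whose products bring mTORC1 to the lysosome when amino acids are present, had at least 1 TPM in every library. Rraga was at 191 ± 12.1, Lamtor5 at 169 ± 7.50 and Rragc at 93.0 ± 2.61 TPM. All 16 genes of the amino acid sensing complexes did so too, with Sec13 at 182 ± 6.61, Sesn2 at 141 ± 6.50 and Seh1l at 114 ± 8.87 TPM. The energy and stress branch was led by Ddit4, whose product REDD1 restrains mTORC1, at 599.9 ± 119 TPM. The AMPK subunit gene Prkag1 had 276 ± 16.0 and the LKB1 gene Stk11 83.7 ± 4.44 TPM. In that branch the isoform genes Prkaa2, Ddit4l and Prkag3 were below 1 TPM (0.781, 0.576 and 0.00937 TPM).

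Downstream, the mTORC1 list was led by Atf4 at 829 ± 32.4, Rps6 at 766 ± 21.9 and Eif4b at 631 ± 35.4 TPM. The third member of the 4E-BP family, Eif4ebp3, and the adaptor gene Grb10 were below 1 TPM (0.680 ± 0.530 and 0.386 ± 0.0536 TPM). Eif4ebp3 shares 67.3% of its exonic length with Ankhd1 on the same strand, and reads in that stretch were assigned to neither gene under the options in the headers. Of the AKT and SGK1 substrates, Gsk3a was highest at 192 ± 5.16 TPM, followed by Wnk1 at 72.7 ± 2.50 and Ndrg2 at 69.7 ± 28.7 TPM. Around Sgk1, the receptor gene Il23r had 80.2 ± 5.95, Fkbp5 58.3 ± 3.10 and the salt-responsive transcription factor gene Nfat5 49.5 ± 1.12 TPM. Nr3c2, the mineralocorticoid receptor gene, had 0 counts, which allows up to 0.163 TPM in replicate 3.

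**Figure D5:**
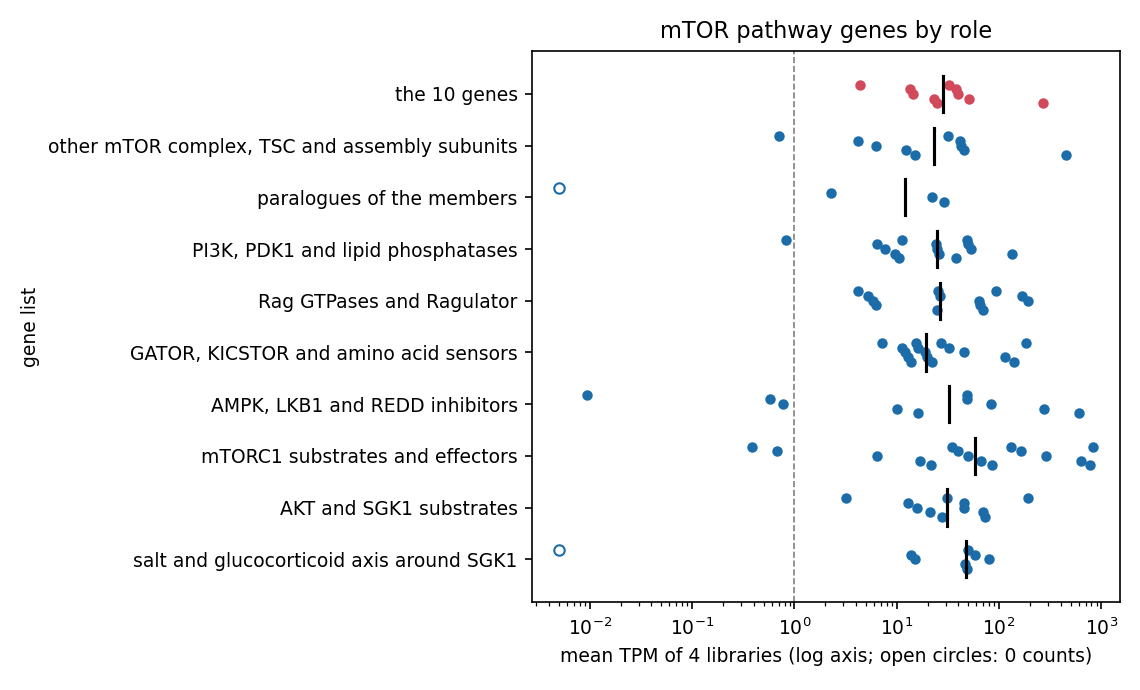
Mean TPM over 4 libraries (log axis) of the 10 genes (red) and the 102 other pathway genes (blue) by list, with list medians as black bars, the level of 1 TPM as a dashed line and genes at 0 counts as open circles. Of the 102 genes, 9 lie below 1 TPM, and the 10 genes have a median of 28.4 TPM.

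Of these 102 genes, 97 entered the test of spread between libraries and 0 passed it (edgeR, adjusted p), beside 0.00823% of all genes. An unadjusted p under 0.05 was found for 10 of the 97, beside 4.90% of all genes. The highest library exceeded the lowest by at least 1.5-fold in 12 of the 97 genes, beside the 18.6% of all genes given above. In 8 of those 12 replicate 4 was highest and replicate 3 lowest, the reverse of the order in Sgk1 and Sgk3, and 36.1% of all 2259 such genes had the same extremes. Among the 10 genes with an unadjusted p under 0.05 (edgeR), replicate 4 was highest and replicate 3 lowest in Ndrg1, Ndrg2, Eif4ebp1, Ddit4 and Sesn3. The same held for Tsc22d3, Lpin1, Pik3cg and Pdcd4, and Slc12a2 had the reverse. These extremes were thus not particular to the substrate genes. Ndrg1 and Ndrg2, with the smallest p, were singled out with their values known. Ndrg1, whose product is a standard readout of SGK1 activity at the protein level, had 39.6, 41.0, 19.1 and 82.6 TPM, low in replicate 3 and high in replicate 4 (adjusted p = 0.289, edgeR). Ndrg2, a related substrate gene, had 61.3, 67.6, 40.8 and 109 TPM (adjusted p = 0.425, edgeR). Without a filter on low counts both were called (adjusted p = 2.67e-06 and 0.00153, edgeR), beside 0.592% of 21299 genes. The same 2 were DESeq2 dispersion outliers, beside 103 of 12156 genes. Without replicate 4 only Ndrg1 of the 97 was called (adjusted p = 0.00816, edgeR), beside 20 of 12145 genes.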

How the data were processed

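The authors deposited raw counts, 1 file per library. Per the file headers, featureCounts 1.4.6-p4 counted read pairs over the exons of each gene in GENCODE release 13 for mouse, on the reverse strand (option 2), with both mates required to align. The headers set no option to count reads with several places or several genes. The headers name STAR in the input, with no version, and the build is mm10 per the labels. The labels call the assay total RNA-seq, while the protocol they link is named for poly(A) RNA.

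Symbols came from GENCODE release 21 (50376 of 50600 identifiers, version numbers dropped). TPM were computed from the counts and the exonic length in the files. In the alternative, the length was that of the longest coding transcript in release 21, or the exonic length for genes with none. Release 21 transcripts can be longer than release 13 exons, and reads in exons outside that transcript were still counted. The 12 gene pairs were compared on log2(TPM + 1) with an exact two-sided sign-flip permutation test over 4 libraries. The spread between libraries was tested over all genes with edgeR 4.0.16 (TMM, filterByExpr, intercept only): each quasi-dispersion was divided by its trend and set against the F distribution, with an adjusted p of 0.05 as threshold. DESeq2 1.42.0 served as an alternative. Both tests were tested on simulated data. Copies were searched with blastn 2.17.0 (98% identity over 100 bases). Promoters are from the RefSeq table of GRCm38.p6, where all 10 genes were found.

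The rule for the 10 genes uses no measured value, but the genes, the 9 lists and the 12 pairs were chosen with earlier results of these data known. The text names the 10 genes, both genes of each reported pair, the 3 highest of each list, list members below 1 TPM, and the 5 genes most like Sgk1 and Mtor with at least 10 TPM. Akt1s1, Mapkap1, Prr5, Prr5l, Ndrg1, Akt2-ps, Xist and, for its spread, Ndrg2 were named after their values were seen. So were the other genes with an unadjusted p under 0.05 in the spread test (edgeR). Depth ran from 9382661 to 34542693 counts, and intervals are 95% exact Poisson intervals for counting error only. Alternatives changed the length, pseudocount, filter, normalisation and tool, and left out each library. One of the 12 pairs is not reported here.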

Additional observations from a re-analysis of the deposited data

How the results depend on the processing

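The choice of gene length was what turned directions. With the longest coding transcript as length, 4 of the 12 pairs reversed: Rptor minus Rictor to 0.33, Mtor minus Mlst8 to 0.17, Mtor minus Rheb to -1.47 and Sgk1 minus Sgk3 to -0.26 log2 units. For Mlst8 that transcript is longer than the exons that were counted, which limits the reversal of its pair. Without any length correction, on CPM, where levels of different genes are not comparable, 3 reversed: Mtor minus Mlst8 to 1.31, Sgk1 minus Sgk3 to -0.53 and Tsc2 minus Tbc1d7 to 2.12 log2 units. All 12 pairs kept their direction with a pseudocount of 0.1, with the median over libraries and without each replicate in turn.

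The spread test called 0 of the 10 genes under every setting run. Over all genes it called 126 with no filter, 5 with a mean count of at least 50, and from 1 to 20 without 1 replicate, the 20 being without replicate 4. DESeq2 marked 103 of 12156 genes as dispersion outliers. Of the 97 pathway genes, 2 were called with no filter (of 100 then tested), 2 were DESeq2 outliers, and 0 to 1 were called without 1 replicate. Without replicate 3 the Sgk1 level was 3.85 TPM. No paired analysis was possible because there is 1 group. Depth limits Sgk1 most, with 85 counts in replicate 3. The 5 genes most like Sgk1 and like Mtor were the same 5 with TMM-normalised CPM.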
